A study of Homo sapiens with 6 samples.

Results

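The lysyl oxidases and lysyl hydroxylases are enzymes that act in the covalent crosslinking of collagen. The genes described here are LOX, LOXL1, LOXL2, LOXL3 and LOXL4 for the 5 lysyl oxidases and PLOD1, PLOD2 and PLOD3 for the 3 lysyl hydroxylases. They were picked out by gene name, with no threshold on a measured value, and are 8 of the 41497 named entries of the expression tables. Each name had 1 entry. All 8 passed the filter on low counts, which left 14860 genes in the test.

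The data are RNA-seq of HK-2 cells, an immortalized line of human proximal tubular epithelial cells, to measure how tubular cells respond to the profibrotic cytokine TGF-β1. Control cells were untreated and the other cells received TGF-β1 for 24 hours, and both groups are labelled wild type (WT), with no other genetic change or agent named. There were 3 control and 3 TGF-β1 libraries. The labels give culture medium with fetal bovine serum and no dose of TGF-β1, whereas the study's methods describe TGF-β treatment in medium without serum. Whether the sequenced control cells were also without serum is not given in the sources used here, so serum and TGF-β1 cannot be told apart. Whether the replicates came from separate cultures is not given in the sources used here, so p values measure the spread between these libraries, which may be technical. HK-2 is 1 established line, so the values describe this line and not tubules in a kidney.

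Lysyl hydroxylases work in the endoplasmic reticulum, where they add hydroxyl groups to lysines of new collagen chains. PLOD2 acts mainly on the telopeptides, the short ends of the chains, and PLOD1 and PLOD3 act mainly on the triple helix. Lysyl oxidases are secreted copper enzymes that oxidize lysines and hydroxylysines outside the cell, and the aldehydes they make join neighboring collagen or elastin molecules. Crosslinked collagen is stiff and hard to degrade, and these enzymes are known for their role in fibrotic kidney, lung and liver.

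The sequence at the start of a gene is shown for 3 of the genes, because they gave the 3 kinds of result seen here. LOX rose after TGF-β1, LOXL4 fell, and PLOD2 was expressed at a high level that did not pass the test. The sequences are from RefSeq on GRCh38.p14 and run 5′ to 3′ on the strand of the gene, from 250 bases before the annotated start to 50 bases after it. The LOX window is chr5:122078210-122078509, the PLOD2 window is chr3:146161135-146161434 and the LOXL4 window is chr10:98268145-98268444, all on the minus strand. The LOXL4 start used by RefSeq lies 27 bases inside the gene end given in the expression tables. Capitals mark matches on either strand to CAGAC, the SMAD box bound by SMAD proteins in TGF-β signaling, or to ACGTG or GCGTG, the core of the hypoxia response element. Where matches overlap, as at ACGTGTCTG in LOX and CAGACGTG in PLOD2, the capitals run together.
LOX: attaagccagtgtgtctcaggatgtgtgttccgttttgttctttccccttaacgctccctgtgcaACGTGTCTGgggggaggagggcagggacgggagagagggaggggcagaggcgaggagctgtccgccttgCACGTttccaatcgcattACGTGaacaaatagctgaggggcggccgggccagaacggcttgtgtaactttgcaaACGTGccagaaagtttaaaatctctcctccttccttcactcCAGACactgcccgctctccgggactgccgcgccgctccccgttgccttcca
PLOD2: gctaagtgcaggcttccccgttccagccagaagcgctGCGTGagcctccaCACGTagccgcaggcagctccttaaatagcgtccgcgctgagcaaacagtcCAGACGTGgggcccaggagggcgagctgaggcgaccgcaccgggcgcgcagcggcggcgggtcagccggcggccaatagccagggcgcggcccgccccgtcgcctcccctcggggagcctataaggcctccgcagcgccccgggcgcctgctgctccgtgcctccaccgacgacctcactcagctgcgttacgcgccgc
LOXL4: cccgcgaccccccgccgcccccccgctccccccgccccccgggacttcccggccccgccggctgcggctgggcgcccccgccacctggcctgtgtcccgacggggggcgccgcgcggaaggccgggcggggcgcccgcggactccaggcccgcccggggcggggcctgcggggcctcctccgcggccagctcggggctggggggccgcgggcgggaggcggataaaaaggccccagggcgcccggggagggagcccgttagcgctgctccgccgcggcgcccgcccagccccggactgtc

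The LOX window held 4 hypoxia cores, which began at bases -185, -116, -98 and -42 from the start, and 2 SMAD boxes, which began at bases -181 and -1. The PLOD2 window held 3 hypoxia cores, beginning at bases -213, -200 and -146, and 1 SMAD box beginning at base -149. The LOXL4 window, with 85.3% G and C, held neither motif. Of the other windows examined, that of PLOD1, which rose, held 2 hypoxia cores and no SMAD box. The window of PLOD3, which also rose, held neither motif. That of LOXL1, which did not pass the test, held 1 SMAD box and no hypoxia core. Among 35116 RefSeq promoter windows of the same length, 45.3% held CAGAC and 48.4% held a hypoxia core. At least 3 cores were found in 10.1% of windows and at least 4 in 4.4%. An AP-1 element (TGANTCA) stood in 7.71% of all windows and a TEAD element (CATTCC) in 14.0%, and neither stood in the windows of LOX, LOXL1, LOXL4, PLOD1, PLOD2 or PLOD3. A match describes the letters and does not show binding, and the lack of a match says only that these letters are not in this window.

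The libraries held 21.9 to 26.9 megacounts (M), and the first principal component of log2 expression, with 69.7% of the variance, separated the groups. TGF-β1 replicate 1 stood apart from the other TGF-β1 libraries on the second component (9.94% of the variance), and results that rest on it are given below without it as well. Of the proximal tubule markers, LRP2 and SLC22A6 had no count in any library and HNF4A had 1 count in all, while GGT1 and PAX8 were expressed and fell. AQP1 went from 28 to 123 reads per group and CUBN from 34 to 61 reads, both at a low level. As AQP1 passed the count filter only through the TGF-β1 libraries, no direction is drawn from its test. The 10 markers summed to 309 to 343 counts-per-million (CPM) in control and 193 to 225 CPM after TGF-β1. The 5 epithelial markers summed to 808 to 868 CPM and 1054 to 1213 CPM, with KRT8 and KRT18 higher, KRT19 and EPCAM lower and CDH1 at most at 0.128 CPM. The 8 fibroblast markers summed to 60.0 to 69.5 CPM in control and 58.4 to 59.9 CPM after TGF-β1, mostly from LUM, which fell. Of these markers PDGFRB rose, while PDGFRA, DCN and FAP stayed at or below 0.207 CPM in each library. COL6A3 went from 8 to 110 reads per group and THY1 from 63 to 19. COL6A3 passed the count filter only through the TGF-β1 libraries and THY1 only through the control libraries. No direction is drawn from their tests. The 4 endothelial markers summed to 0.940 to 1.68 CPM in control and to at most 0.0955 CPM after TGF-β1. Among them CDH5 went from 62 reads to 0. It passed the count filter only through the control libraries, so no direction is drawn from its test. Of the leukocyte markers, PTPRC and CD3E were at most at 0.0852 CPM and LYZ at most at 0.341 CPM. CD68 stood at 91.9 to 102 CPM in control and at 60.9 to 84.5 CPM after TGF-β1 and fell. The part of these markers in the results on the enzymes was not tested.

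Of the 8 enzymes, 3 rose and 1 fell after TGF-β1. Across the table, 22.2% of genes rose and 22.1% fell, or 44.3% in all, so the number of enzymes that changed was close to that of genes at large. Calls required an adjusted p below 0.05 in the edgeR quasi-likelihood test with TMM scaling, adjusted over all genes tested by the Benjamini-Hochberg method. Levels below are CPM with the TMM-scaled library size, unless transcripts-per-million (TPM) are named. TPM are the deposited values, which divide by gene length and are scaled to the same total in each library, without the TMM factor. The change of a gene between the groups can therefore differ between CPM and TPM. Scaling by total counts alone moved the median over all genes tested by -0.11 on the log2 scale and gave 2134 genes called higher and 4590 called lower, against 3294 and 3288. The CPM values of the groups did not overlap for 4 of the 8 enzymes and for 55.6% of all genes tested. RNA was taken from whole cultures, so fewer cells of a type and less RNA per cell cannot be told apart.

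**Figure D1:**
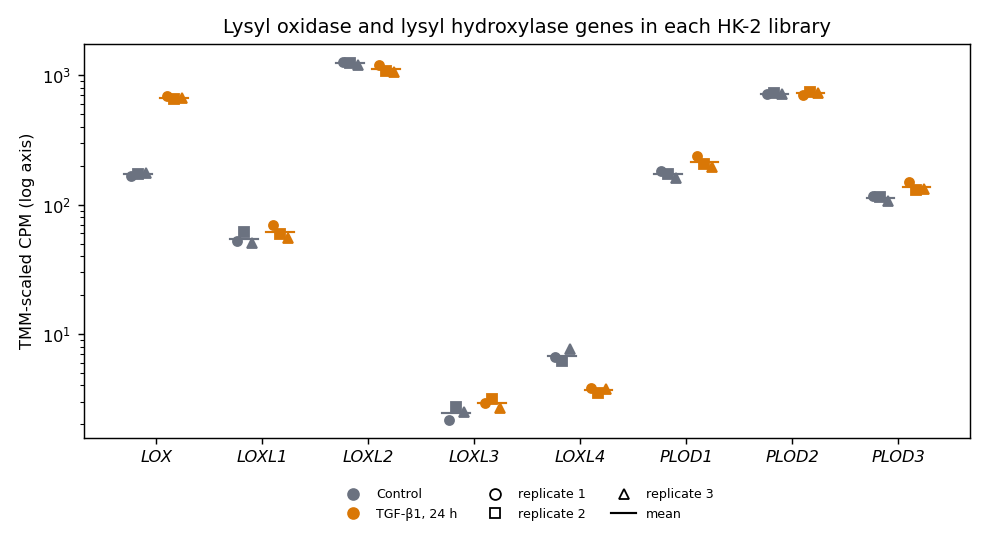
Level of each enzyme gene in each library, in TMM-scaled CPM on a log axis. Points are single libraries, shapes are replicate numbers and lines are means of 3 libraries. LOX went from 168 to 175 CPM in control to 661 to 695 CPM after TGF-β1, and LOXL4 was lower in each TGF-β1 library than in each control library.

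LOX, the founding member of the lysyl oxidases, changed most. It is annotated on GRCh38 at chr5:122063195-122078259, minus strand. LOX stood at 168, 174 and 175 CPM in control replicates 1, 2 and 3 and at 695, 661 and 665 CPM in the TGF-β1 replicates. The groups were far apart, and the libraries of a group differed little. The log2 fold change was 1.97 ± 0.05 (SE), with a 95% interval of 1.85 to 2.08, or 3.91-fold (edgeR adjusted p = 7.65e-10, n = 3 per group). This was the 206th largest rise among the genes tested. In TPM, LOX moved from rank 1721 to rank 363 of 36978 named genes on the primary chromosomes. SRFBP1, a gene of the opposite strand, shares 138 exonic bases with LOX, or 2.60% of its length, and rose by a log2 fold change of 0.37 ± 0.08 (edgeR adjusted p = 0.00226). Whether strand was used in counting is not given in the sources used here, so reads in the shared bases cannot be assigned to either gene.

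The 3 genes whose pattern was most like that of LOX were INAVA, COL4A1 and STK38L. Likeness was the Euclidean distance over the 6 libraries between log2(CPM + 0.1) values centered on the control mean, compared across 10433 genes with 1 entry and a mean of at least 5 CPM. The distances were 0.135 for INAVA, 0.149 for COL4A1 and 0.160 for STK38L, and their log2 fold changes were 2.03, 1.92 and 2.03. Changes close to that of LOX follow from this choice. COL4A1 encodes a chain of basement membrane collagen IV.

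LOXL4, a lysyl oxidase with scavenger receptor domains, was the single enzyme that fell. It lies at chr10:98247690-98268221 on the minus strand. Its level was low, at 6.65, 6.13 and 7.67 CPM in control and 3.80, 3.47 and 3.72 CPM after TGF-β1. Each TGF-β1 library was below each control library, on 480 reads in control and 261 after TGF-β1. LOXL4 had a log2 fold change of -0.89 ± 0.13, with an interval of -1.18 to -0.60 (edgeR adjusted p = 0.000268, n = 3 per group), or 0.538 of the control level. The calls for LOX and LOXL4 held under all alternatives tried.

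LOXL1, which is best known for its part in elastic fibers, is annotated at chr15:73926462-73952137 on the plus strand. It stood at 52.0, 61.1 and 50.2 CPM in control and at 70.0, 59.7 and 55.3 CPM after TGF-β1. The groups overlapped, with the highest value in TGF-β1 replicate 1. With an interval of -0.04 to 0.41, the log2 fold change of 0.18 ± 0.10 did not pass the test (edgeR adjusted p = 0.174). Without TGF-β1 replicate 1 it was 0.07. The antisense gene LOXL1-AS1 shares 232 exonic bases with LOXL1, or 7.80% of its length, and its log2 fold change was 0.04 ± 0.08 (edgeR adjusted p = 0.714).

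LOXL3, an enzyme known for its role in palate and cartilage development, was expressed at a low level. It lies at chr2:74532258-74555719 on the minus strand. Control libraries gave 2.17, 2.74 and 2.47 CPM and TGF-β1 libraries gave 2.92, 3.14 and 2.67 CPM, so the groups overlapped. With 174 and 208 reads per group, the log2 fold change was 0.24 ± 0.16, with an interval of -0.12 to 0.61 (edgeR adjusted p = 0.257). LOXL3 shares 833 exonic bases with HTRA2 and 79 with DOK1, both on the opposite strand. HTRA2 rose by a log2 fold change of 0.35 ± 0.09 (edgeR adjusted p = 0.00889) and DOK1 gave 0.28 ± 0.12 (edgeR adjusted p = 0.0878), so the level of LOXL3 is uncertain where 16.2% of its length is shared with HTRA2.

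LOXL2, an enzyme that crosslinks basement membrane collagen IV, was by far the most abundant lysyl oxidase of these cells. It is annotated at chr8:23296897-23404120 on the minus strand. Control libraries held 1272, 1251 and 1196 CPM and TGF-β1 libraries held 1203, 1082 and 1058 CPM. In CPM, TGF-β1 replicate 1 lay within the control range and the other TGF-β1 libraries lay below it. The groups did not overlap in TPM, with 1118, 1117 and 1090 TPM in control and 960, 911 and 880 TPM after TGF-β1. The LOXL2 log2 fold change of -0.15 ± 0.06, with an interval of -0.29 to -0.01 (edgeR adjusted p = 0.0704, n = 3 per group), missed the threshold. Without TGF-β1 replicate 1 the value was -0.22 and passed it (edgeR adjusted p = 0.000543), and with scaling by total counts it was -0.26 (edgeR adjusted p = 0.00678). LOC100507156, on the opposite strand, shares 124 exonic bases with LOXL2, or 3.33% of its length, and fell by 1.18 on the log2 scale (SE 0.27, edgeR adjusted p = 0.00641).

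PLOD2, the telopeptide lysyl hydroxylase, was the most abundant of its family and changed little. It lies at chr3:146069437-146161184 on the minus strand. It stood at 724, 726 and 721 CPM in control and at 704, 741 and 734 CPM after TGF-β1. The control values lay inside the TGF-β1 range. The log2 fold change was 0.0061 ± 0.05 (edgeR adjusted p = 0.935), and its interval of -0.11 to 0.12 excludes a change of the size seen in LOX. In TPM the groups did not overlap, with 599, 610 and 619 TPM in control and 529, 588 and 575 TPM after TGF-β1. The sign of the difference thus depended on the scaling, and scaling by total counts gave -0.10 (edgeR adjusted p = 0.122).

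PLOD1, a lysyl hydroxylase of the triple helix, rose slightly. It lies at chr1:11934717-11975537 on the plus strand. Its levels were 183, 174 and 160 CPM in control and 239, 208 and 197 CPM after TGF-β1. The groups did not overlap, and TGF-β1 replicate 1 was the highest. The log2 fold change was 0.32 ± 0.08, with an interval of 0.14 to 0.49 (edgeR adjusted p = 0.00806, n = 3 per group). Without TGF-β1 replicate 1 it was 0.22 (edgeR adjusted p = 0.00515), and with scaling by total counts it was 0.21 and missed the threshold (edgeR adjusted p = 0.0537).

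PLOD3, which also transfers sugars to hydroxylysine, also rose slightly. It is annotated at chr7:101205984-101217581 on the minus strand. Control libraries gave 117, 115 and 107 CPM and TGF-β1 libraries gave 150.2, 129 and 132 CPM. Each TGF-β1 library was above each control library, and replicate 1 was again the highest. PLOD3 gave a log2 fold change of 0.28 ± 0.07, with an interval of 0.13 to 0.43 (edgeR adjusted p = 0.00679, n = 3 per group). It was 0.19 without TGF-β1 replicate 1 (edgeR adjusted p = 0.0026), and 0.17 with scaling by total counts, where it missed the threshold (edgeR adjusted p = 0.0655). TGF-β1 replicate 1 was the highest TGF-β1 library for LOX, LOXL1, LOXL2, LOXL4, PLOD1 and PLOD3, and the lowest for PLOD2.

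The genes most like PLOD1 by the same distance were MAP1S at 0.0489, RAB11B at 0.0512 and UBE2S at 0.0615. All 3 rose, with log2 fold changes of 0.30, 0.32 and 0.29. Each had its highest value in TGF-β1 replicate 1. Both traits follow from the choice of genes with the pattern of PLOD1. MAP1S, for example, stood at 33.3, 32.0 and 29.0 CPM in control and at 43.0, 36.8 and 36.1 CPM after TGF-β1.

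**Figure D2:**
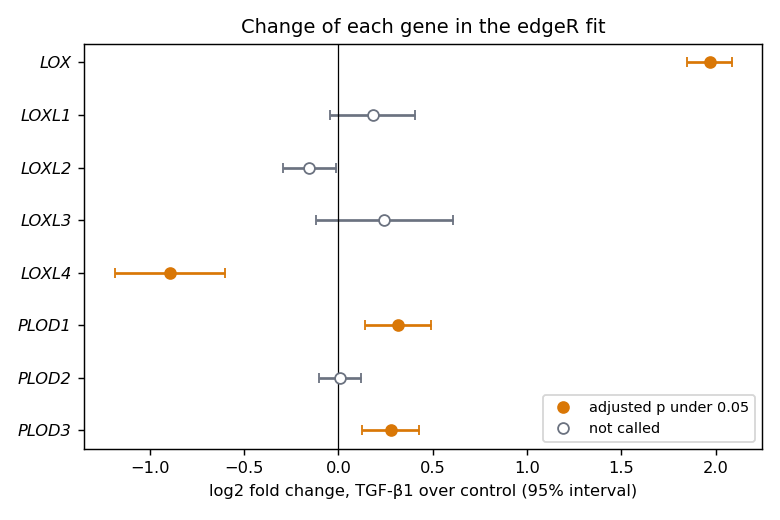
Log2 fold change of each gene, TGF-β1 over control, with 95% intervals from the edgeR fit (3 libraries per group). Filled points passed the test. LOX lies at 1.97 and LOXL4 at -0.89, PLOD1 and PLOD3 lie near 0.3, and the intervals of LOXL1, LOXL3 and PLOD2 include 0.

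Per length, the order of the enzymes in control was LOXL2 at 1108 ± 15.9 TPM (SD, n = 3), PLOD2 at 609 ± 9.70, PLOD1 at 184 ± 9.49, PLOD3 at 134 ± 3.92, LOX at 108 ± 4.14, LOXL1 at 60.9 ± 6.31, LOXL4 at 5.08 ± 0.660 and LOXL3 at 1.60 ± 0.197 TPM. After TGF-β1, LOX at 389.6 ± 1.15 TPM had passed PLOD1 (211 ± 16.5) and PLOD3 (158, 144 and 145 in replicates 1, 2 and 3). It remained below LOXL2 (917 ± 40.2) and PLOD2 (564 ± 30.7). LOXL1 (63.4 ± 6.17), LOXL4 (2.51 ± 0.0732) and LOXL3 (1.74 ± 0.159) kept their places at the bottom. The libraries of neighbors in this order did not overlap in either group. These levels use the gene length of the expression tables, which joins the exons of all transcripts of a gene, so a gene with long exons in rarely used transcripts is understated.

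The make-up of the lysyl oxidase pool shifted toward LOX. LOX supplied 8.07%, 8.39% and 8.83% of the summed lysyl oxidase TPM in control and 27.4%, 28.5% and 29.2% after TGF-β1, a gain of 19.9 percentage points. LOXL2 supplied 87.0%, 85.9% and 86.1% in control against 67.4%, 66.5% and 66.2% after TGF-β1. The control cells held 10.3 ± 0.518 LOXL2 transcripts per LOX transcript, and the TGF-β1 cells held 2.35 ± 0.102 (SD, n = 3). LOXL1 kept a share of 4.74% and 4.61%, while LOXL3 and LOXL4 together stayed under 1% in each library. The summed level of the family was 1284 ± 17.1 TPM in control and 1374 ± 46.7 TPM after TGF-β1. In TMM-scaled CPM the sums were 1431 to 1501 in control and 1784 to 1975 after TGF-β1. Shares and ratios are descriptions and were not tested.

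In the lysyl hydroxylase pool the shift was small and in the direction of the helix enzymes. PLOD2 supplied 64.6%, 65.5% and 67.1% of the summed TPM in control and 57.8%, 62.5% and 62.8% after TGF-β1. The shift of -4.69 percentage points was -3.07 without TGF-β1 replicate 1. PLOD1 went from 19.8% ± 0.949 to 22.8% ± 1.86 and PLOD3 from 14.4% ± 0.354 to 16.1% ± 1.03 (SD, n = 3). The summed level was 927 ± 4.99 TPM in control and 924 ± 14.1 TPM after TGF-β1, with overlap between the groups. In TMM-scaled CPM, which differ from TPM in the scaling of the libraries as well as in length, the sums did not overlap. They were 988 to 1025 CPM in control and 1062 to 1094 CPM after TGF-β1.

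**Figure D3:**
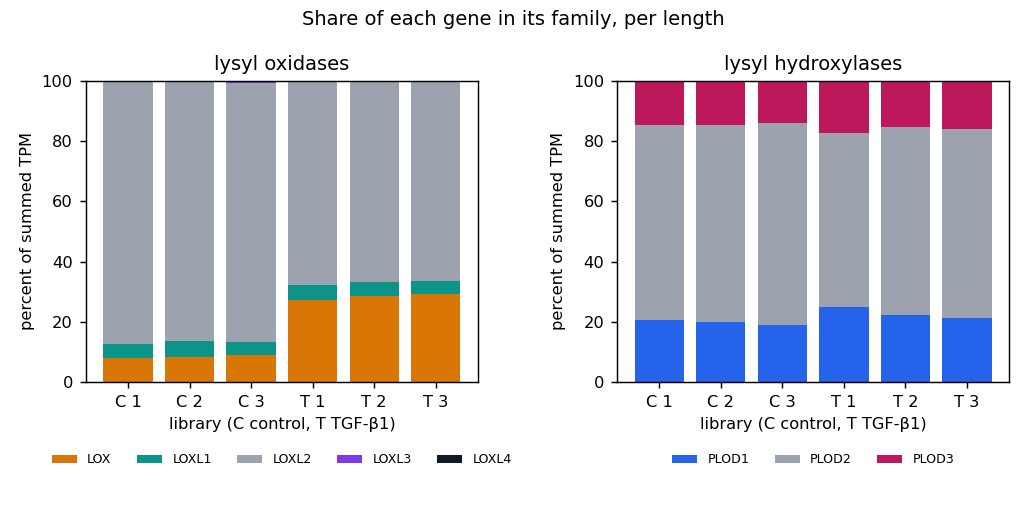
Share of each gene in the summed TPM of its family, in percent, for the 3 control (C) and 3 TGF-β1 (T) libraries. The LOX part grows from 8.07% to 8.83% in control to 27.4% to 29.2% after TGF-β1 at the cost of LOXL2, while PLOD2 remains the main lysyl hydroxylase. The parts of LOXL3 and LOXL4 at the top are too thin to read off.

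Most of the tested collagens on which these enzymes act rose. Of 18 fibrillar collagen, collagen IV and elastin genes, 9 passed the count filter, of which 6 rose, 1 fell and 2 did not pass the test. Of the 6, 1 passed the filter only through the TGF-β1 libraries, on 14 reads in control and 100 after TGF-β1. The 1 that fell passed it only through the control libraries. Calls of such genes are therefore no support for a direction. With them included, the median log2 fold change of the 9 was 1.07, against 0.0063 for all genes tested. COL1A1, the main chain of collagen I, went from 24.0 ± 0.366 to 236 ± 8.37 CPM (log2 fold change 3.30 ± 0.06, edgeR adjusted p = 7.24e-11). COL4A1 rose by 1.92 ± 0.05, the fibrillar chain COL5A1 by 1.41 ± 0.05 and the collagen IV chain COL4A2 by 1.07 ± 0.06. COL11A1, named after its values were seen, fell by 1.27 on the log2 scale at under 1 CPM. COL1A2, the partner chain of COL1A1, had no read in control and 1 read after TGF-β1. Elastin was below the filter.

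Relative to the summed transcripts of their substrates, the summed transcripts of each enzyme family were less abundant after TGF-β1. The summed TPM of the 18 substrate genes was 766 ± 11.3 in control and 2.36 times as high after TGF-β1, at 1808 ± 42.7. Most of that sum came from the collagen IV chains COL4A2 (495 TPM in control and 957 after TGF-β1) and COL4A1 (130 and 453 TPM). The fibrillar chains COL5A1 (83.0 and 203 TPM) and COL1A1 (13.5 and 122 TPM) gave less. Ratios to the sum therefore mainly describe collagen IV. Lysyl oxidase TPM per substrate TPM was 1.68 ± 0.00530 in control and 0.760 ± 0.0271 after TGF-β1, and lysyl hydroxylase TPM per substrate TPM was 1.21 ± 0.0118 in control against 0.511 ± 0.00555 (SD, n = 3). LOX alone differed by substrate. Among the named substrates that rose, COL5A1 (log2 fold change 1.41) and COL4A2 (1.07) rose less than LOX (1.97). COL4A1 (1.92) rose about as much as LOX and COL1A1 (3.30) rose more. LOX TPM per COL1A1 TPM was 7.98, 8.07 and 8.07 in control against 3.22, 3.09 and 3.29 after TGF-β1. Per COL4A1 TPM it was 0.808, 0.824 and 0.866 in control against 0.907, 0.824 and 0.853 after TGF-β1, with overlap between the groups.

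Among the proteases, binding partners and copper carriers of the lysyl oxidases, 11 of 13 genes were tested. Of these, 5 rose, 0 fell and 6 did not pass the edgeR test, with a median of 0.08. BMP1, the protease that releases active LOX from its precursor, rose from 162 ± 3.11 to 247 ± 12.2 CPM (0.62 ± 0.05, edgeR adjusted p = 5.17e-06). Its relative TLL1 rose from 12.0 ± 0.941 to 37.5 ± 4.56 CPM (1.65 ± 0.10, edgeR adjusted p = 2.89e-07). Fibronectin (FN1), a matrix protein that binds LOX, rose by 0.98 ± 0.08. ATP7A, which loads copper onto secreted enzymes, rose by 0.56 ± 0.12 (edgeR adjusted p = 0.00366). FBLN5, an elastic fiber protein named after its values were seen, is 1 of the 5 counted as higher. It went from 26 to 85 reads per group and stayed between 0.213 and 1.73 CPM in all libraries. FBLN5 passed the count filter only through the TGF-β1 libraries, where it is higher, so no direction is drawn from its test. With scaling by total counts, 1 gene of this list fell.

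All 15 partners and fellow collagen modifiers of the lysyl hydroxylases in the endoplasmic reticulum were tested. Of these, 8 rose, 3 fell and 4 did not pass the test, and the median was 0.28. PPIB (cyclophilin B), a proline isomerase of collagen folding, rose by 0.78 ± 0.06 from 83.7 to 88.7 CPM in control libraries to 138 to 161 CPM. FKBP10, which assists PLOD2, rose by 0.67 ± 0.06 from 239 to 381 CPM, while PLOD2 itself gave 0.0061. FKBP14, another proline isomerase, rose by 0.60 ± 0.06 and P3H1, a prolyl 3-hydroxylase, by 0.59 ± 0.06. P3H4, a partner of PLOD1 named after its values were seen, rose by 0.35 ± 0.08. CRTAP, the partner of P3H1, fell by 0.20 on the log2 scale and P4HA2, a prolyl 4-hydroxylase subunit, fell by 0.21. COLGALT2, a collagen galactosyltransferase named after its values were seen, fell by 0.61 at 3.30 to 2.17 CPM.

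Of 10 other matrix crosslinking enzymes, 3 were tested. Transglutaminase 2 (TGM2) rose by 0.89 ± 0.06 (edgeR adjusted p = 5.43e-07), and its level in single libraries was 638 to 642 CPM in control and 1125 to 1265 CPM after TGF-β1. Peroxidasin (PXDN), which crosslinks collagen IV, fell by 0.36 on the log2 scale (SE 0.06, edgeR adjusted p = 0.000715). The third, TGM5, did not pass the test.

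LOX and PLOD2 are known targets of the hypoxia response, and a list of 17 hypoxia response genes was therefore set beside them. Of the 16 tested, 9 fell, 2 rose and 5 did not pass the test, with a median of -0.44. ADM (adrenomedullin) fell from 28.8 ± 2.16 to 6.81 ± 0.0676 CPM (-2.08 ± 0.08, edgeR adjusted p = 8.44e-09). NDRG1 gave -0.77 ± 0.08, and the glycolysis regulators PFKFB3 and PFKFB4 gave -0.66 ± 0.06 and -0.63 ± 0.07. VEGFA, an angiogenic factor, rose by 1.36 ± 0.05 and the glucose transporter SLC2A1 by 0.45 ± 0.07. In the same libraries LOX rose and PLOD2 did not pass the test. The part of the hypoxia response in these results was not tested. Without TGF-β1 replicate 1, 4 genes of this list were called higher instead of 2.

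**Figure D4:**
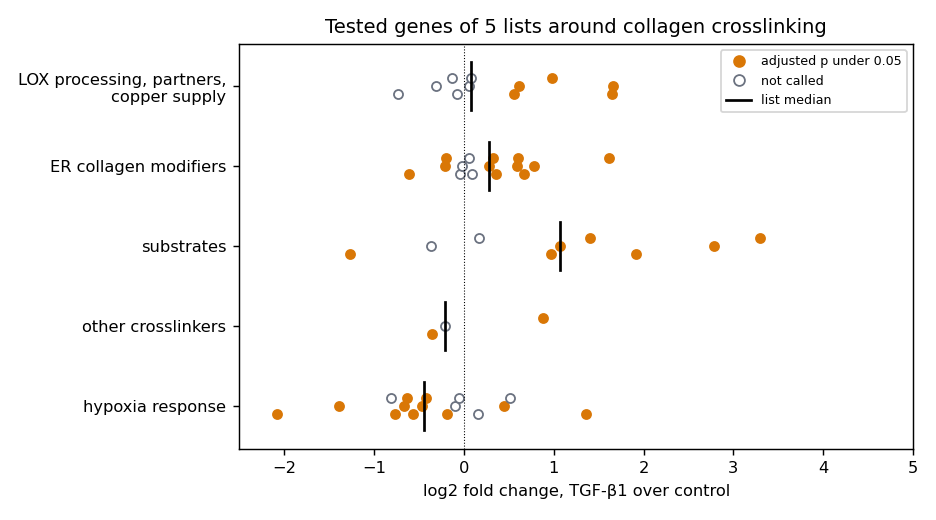
Log2 fold change, TGF-β1 over control, of the tested genes of 5 lists around collagen crosslinking. Filled points passed the edgeR test and black bars are list medians. Substrates have the highest median (1.07) and hypoxia response genes the lowest (-0.44), and each list holds called genes.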

How the data were processed

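The labels of the HK-2 libraries put 3 in the control group and 3 in the TGF-β1 group. Poly(A) RNA was captured on oligo(dT) beads. The submitters' processing notes name CASAVA, featureCounts 2.0.1 and DESeq2 1.16.1 on hg38, with no role given here. The aligner and the strand setting are not given in the sources used here. The authors deposited raw counts per gene with TPM and FPKM computed from them, and FPKM was not used. Each table listed 42095 entries, and 7 records broken over several lines were rejoined. Total counts were 21.9 to 26.9 megacounts (M) per library. Entries without a name (0.396% to 0.464% of counts) were left out.

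Genes were kept by filterByExpr of edgeR 4.0.16 (minimum count 10), scaled with TMM and compared with the robust quasi-likelihood F test, which is two-sided, over all 6 libraries. P values were adjusted by Benjamini-Hochberg over 14860 genes, with calls at 0.05. The standard error was the size of the log2 fold change over the square root of F. R 4.3.3, DESeq2 1.42.0, limma 3.58.1 and Python 3.11.15 were also used.

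All 8 enzymes were named. From each further list, those called and averaging 5 CPM or more were named, at most 4 per direction by size of change, beside genes overlapping an enzyme, LOXL1-AS1 and the 3 genes most like LOX and PLOD1. Some genes of the lists and neighborhoods are not reported here. The enzymes are found by name alone, but these families and the lists were chosen for study with earlier results of these data known. Alternatives were DESeq2, limma-voom, RLE size factors, total counts, other filters, entries of a name summed, CPM shares, leaving out each library, and a replicate block.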

Additional observations from a re-analysis of the deposited data

How the results depend on the processing

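LOX and LOXL4 kept their calls under all alternatives. With scaling by total counts, 1 enzyme was called higher, 2 were called lower and 2134 of all genes were called higher, and 1 partner of the lysyl oxidases, 2 substrates and 2 other crosslinking enzymes were called lower. With genes of a mean of at least 50 counts, 2 enzymes were called lower. The additional call lower was LOXL2. Substrates called lower numbered 0 with DESeq2 and 3 with all genes with a count. LOX gained 24.6 percentage points when shares were computed from CPM, which do not divide by length.

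Leaving out each library in turn gave 4 to 5 enzymes called, 1 to 2 of them lower, 1 to 2 substrates called lower and 2 to 4 hypoxia response genes called higher. All genes called ranged from 5333 to 7196. The gain of LOX ranged from 19.5 to 20.4 percentage points. The log2 fold change of PLOD2, 0.0061 in the main test, was -0.016 with a mean of at least 50 counts, -0.10 with total counts, and between -0.012 and 0.016 when a library was left out, with -0.0047 without TGF-β1 replicate 3. It was not called in any of these. The causes were not tested.

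Whether replicate numbers pair the libraries could not be settled from their correlations. The deviations of same-numbered libraries correlated with r of 0.111, -0.012 and 0.076. Those of control and TGF-β1 libraries with different numbers correlated with r from -0.149 to 0.088. With a replicate block, 2 enzymes were called lower, since LOXL2 at -0.16 passed the threshold (edgeR adjusted p = 0.0427), and 6790 genes were called in place of 6582. The depth limits LOXL3 and LOXL4, which rest on 174 to 480 reads per group.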

Other observations

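Around the LOX gene, the pair ZNF474 and ZNF474-AS1 stood on few reads in control and on more after TGF-β1. They were named after their values were seen, in a look at entries within 100 kb of each enzyme. ZNF474-AS1, whose nearest end lies 32521 bases upstream of LOX on the same strand, had 3 control reads and 70 TGF-β1 reads. ZNF474, on the opposite strand and 51286 bases away, had 3 control reads and 67 TGF-β1 reads. Both passed the count filter only through the TGF-β1 libraries, where they are higher. For that reason no p value is given for them. These genes overlap each other, so their reads cannot be told apart if strand was not used in counting.

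Next to PLOD3, at 583 bases, ZNHIT1 rose by 0.34 ± 0.07 (edgeR adjusted p = 0.0023), close to the 0.28 of PLOD3. R3HCC1L, 2792 bases from LOXL4, gave -0.16 ± 0.06 and did not pass the test (edgeR adjusted p = 0.067).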
